A study of Homo sapiens with 11 samples.

Results

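SKP2 binding and replication origins were compared in HCT116 RepID KO cells, using 13518 SKP2 ChIP-Seq peaks and 83872 origins on chromosomes 1 to 22, out of 13885 peaks and 85555 origins in the deposited lists. HCT116 cells derive from a colon carcinoma, and in the RepID KO line, which the labels describe as a clone, the gene for RepID (also named DCAF14 or PHIP) had been disrupted with CRISPR-Cas9. Chromatin for SKP2 was from untreated, unsynchronized cultures, and each list came from 1 library. The whole series comprised 11 samples, and the 6 other lists used here for comparison were SKP2 peaks from HCT116 WT cells and, from U2OS osteosarcoma cells, CUL4A, CDT2, H3K4me3 and H3K9me3 peaks and origins. The labels give U2OS WT cells for the origins, and for CDT2 the series text names U2OS cells overexpressing FLAG-tagged full-length RepID. Peak lists hold no measure of RepID itself, so the genotype labels could not be checked against the data.

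SKP2 is the F-box protein that gives the SCF ubiquitin ligase, built on the scaffold CUL1, its choice of substrates. Among these is CDT1, a licensing factor that loads the replicative helicase before S phase and has to be removed so that no origin fires again in the same cycle. CDT1 is also a substrate of the CRL4 ligase, in which CUL4A is the scaffold and CDT2 and RepID are substrate receptors. Origins were mapped from short nascent strands that resist lambda exonuclease because they begin with an RNA primer. In such maps a narrow region may mark a well-placed start of replication, and a broad one may hold several starts. Width also depends on how regions were called, so it was not read here as a measure of how precisely replication starts.

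An origin was met, by 1 bp or more, by 6211 of the SKP2 peaks (45.9%, with a 95% interval of 45.1 to 46.8% by Wilson's method). Origins covered 10.4% of the sequence considered, which is every 1 Mb bin in which any of the 8 lists had a region. In the other direction, 5777 origins (6.89%, 6.72 to 7.06%) met a SKP2 peak, and SKP2 peaks covered 1.10% of the length of origins. SKP2 peaks had a median width of 369 bp and origins one of 2000 bp. With 1 library per condition there is no spread between replicates and no test, so all intervals given here cover the error of counting regions only and treat neighbouring regions as independent. The sequencing depth of the libraries is unknown.

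The share of origins with SKP2 rose with the width of the origin, whereas the number of SKP2 peaks per length of origin was highest in the narrowest origins. Against the 6.89% of all origins, SKP2 was found at 3.51% (3.26 to 3.78%) of the 18922 origins of 200 to 1000 bp (0.2 to 1 kb) and at 4.51% (4.31 to 4.73%) of the 37986 origins of 1 to 3 kb. The share was 9.81% (9.43 to 10.2%) of the 22531 origins of 3 to 10 kb and 26.8% (25.5 to 28.1%) of the 4433 origins wider than 10000 bp. When only the stronger 50% of origins by score was used, the first of these steps turned round, with 7.03% (5.85 to 8.41%) in the narrowest class and 5.70% (5.34 to 6.08%) at 1 to 3 kb. The widest origins made up 5.29% of all origins and 20.6% of those with SKP2. Among the 71 origins wider than 50000 bp, 70.4% (59.0 to 79.8%) met at least 1 SKP2 peak.

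A wider origin offers more sequence in which a peak can fall, so the centres of SKP2 peaks were also counted per Mb of origin. Origins of 200 to 1000 bp held 569 centres in 13.2 Mb, a density of 43.1 per Mb (exact Poisson 95% interval 39.6 to 46.8). The density was 22.03 per Mb (20.97 to 23.1) in origins of 1 to 3 kb, 19.3 (18.5 to 20.1) in those of 3 to 10 kb and 18.9 (18.0 to 19.9) in those wider than 10000 bp. All 4 values lie above the 4.97 SKP2 peaks per Mb of all sequence considered, by 8.67-fold, 4.43-fold, 3.88-fold and 3.804-fold in that order. Above about 3000 bp the density no longer fell with width, and from 3 up to 50 kb it stayed between 17.8 and 20.0 per Mb in each of 7 finer classes. Within the narrowest class the density was 55.7 per Mb (49.0 to 63.2) up to 600 bp and 36.7 (32.8 to 41.0) from there to 1000 bp.

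**Figure D1:**
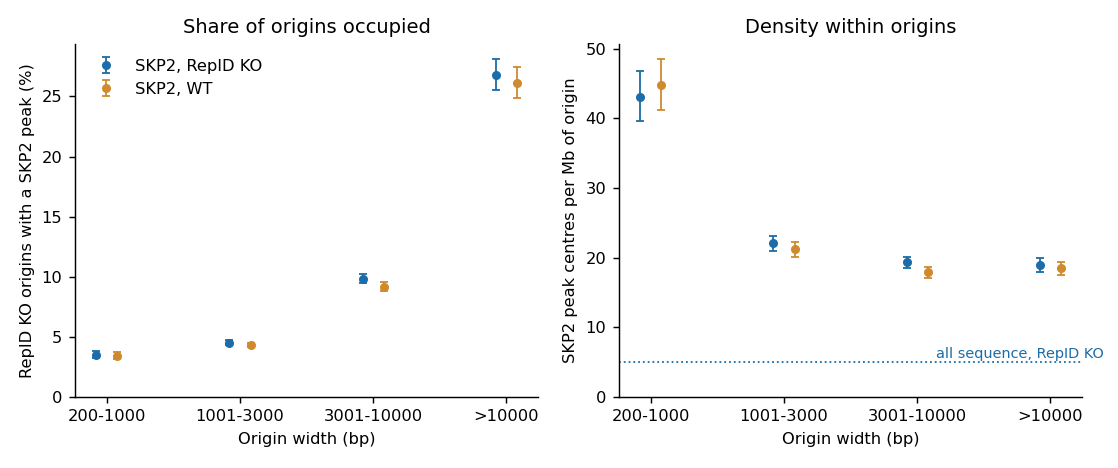
Left, percent of HCT116 RepID KO origins with a SKP2 peak (Wilson 95% intervals) by origin width, for SKP2 peaks of RepID KO (blue) and WT cells (orange); right, SKP2 peak centres per Mb of origin (exact Poisson 95% intervals), with the density over all sequence as a dotted line. Occupancy in RepID KO cells goes from 3.51 to 26.8%, while the density goes from 43.1 to 18.9 per Mb.

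The regional level of SKP2 differed between these classes, since narrow origins lay in regions with fewer SKP2 peaks: the densities of their own 1 Mb bins gave an expected 89.4 centres in the 13.2 Mb of the narrowest class and 869 in the 79.1 Mb of the widest. When each origin was set against the SKP2 density of its own 1 Mb bin, the ratio of observed to expected centres was 6.36 (5.85 to 6.91) for the narrowest class, 2.88 (2.74 to 3.02) and 2.06 (1.97 to 2.14) for the middle classes, and 1.72 (1.63 to 1.81) for the widest. The order of the classes was the same against this reference, and the gap between the narrowest and the widest grew from 2.28-fold to 3.70-fold. The density of a bin includes the peaks inside its origins, which holds the ratio down where origins cover much of the bin. The part of this limit in the wider gap was not tested.

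SKP2 peaks were seldom repeated within an origin, except in the widest class. No origin of 200 to 1000 bp met more than 1 peak, and 11 of the 1714 occupied origins of 1 to 3 kb met 2. In the class above 10000 bp, 17.6% (15.5 to 19.9%) of the 1188 occupied origins met 2 or more peaks, 48 met at least 3, and the highest number was 11. At an occupied origin of the narrowest class, SKP2 covered a median of 50.8% of the origin, against 2.79% in the widest class. Peaks centred in these 2 classes had median widths of 342 and 429 bp. The contrast in covered share thus largely restates the width of the origins. A narrow origin also has little room for more than 1 peak of this size.

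By the rule fixed for naming sites, the 2 origins with the most SKP2 peaks in each class are given, with ties broken by the higher summed SKP2 score, in hg19 coordinates counted from 1. In the narrowest class all 664 occupied origins had 1 peak, so the score alone chose the 800 bp origin on chromosome 9 from 98330001 to 98330800, with a SKP2 peak score of 4515 (the authors' whole-number score, of unstated scale, used here to rank regions within a list), and one of the same width on chromosome 2 from 6899801 to 6900600, with a score of 3852. Both also met a SKP2 peak of WT cells and a U2OS CDT2 peak, and neither met H3K9me3 or H3K4me3. Among the 11 origins of 1 to 3 kb with 2 peaks, the rule chose an origin on chromosome 12 from 108971401 to 108973200 and one on chromosome 7 from 148027001 to 148029200, each with 2 SKP2 peaks and with CDT2 and H3K9me3. In the class of 3 to 10 kb, where 3 origins had 3 peaks, the origin on chromosome 1 from 142535401 to 142543400 met 3 SKP2 peaks that covered 62.5% of it. The other was on chromosome 5 from 1538201 to 1546000, also with 3 peaks, and met no H3K9me3 or CDT2 peak. In the widest class the highest numbers were at origins on chromosome 4 from 49093201 to 49158800 and on chromosome 21 from 10772001 to 10860800, with 11 SKP2 peaks each and 21 and 47 CDT2 peaks. The chromosome 4 origin also had the highest origin score of the authors on chromosomes 1 to 22, 147043. Among the named origins, only those on chromosomes 2 and 5 met a U2OS origin, whereas 96.6% of all origins of the widest class with SKP2 did. The bins of the named chromosome 4 and chromosome 1 origins border stretches where no list had a region. Mappability was not checked there or at any other site named here. No annotation of hg19 was used here, so no gene was assigned to these sites.

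Origins with SKP2 had higher scores of the authors than origins without in every width class, though the values overlapped widely. In the narrowest class the median score was 75 with SKP2 (quartiles 58 to 114.5) and 67 without (54 to 93), at a median width of 800 bp in both. In the widest class it was 3558 (2034.25 to 6855.5) with SKP2 and 2722 (1689 to 4653) without, but there the median width differed too, 16800 against 13800 bp. Divided by rising score into 5 equal groups, the narrowest origins were occupied in 2.62% (2.15 to 3.17%) of the bottom group and in 5.02% (4.37 to 5.76%) of the top group. In origins wider than 10000 bp, occupancy was 20.7% (18.2 to 23.5%) in the bottom and 38.3% (35.2 to 41.6%) in the top group. Median width also differed between bottom and top groups, at 400 and 800 bp in the narrowest class and 11600 and 27200 bp in the widest. Per length of origin, the density in the narrowest class was between 36.1 and 41.4 centres per Mb in the lower 4 groups and 57.4 (49.2 to 66.5) in the top group, and in the widest class it was between 17.6 and 19.6 in all 5.

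SKP2 peaks with high scores lay at origins far more often than those with low scores. In 5 groups of equal size, the share of SKP2 peaks meeting an origin was 17.2% (15.8 to 18.7%) in the lowest, then 31.9, 41.2 and 56.9%, and 82.6% (81.1 to 84.0%) in the highest. The median peak width in these groups ran from 455 bp in the lowest to 323 bp in the third and 398 bp in the highest. Split by their own width instead, the peaks also differed, and the share at origins was 34.5% (32.8 to 36.3%) for peaks of 200 to 250 bp, 46.6 and 48.5% for the next wider classes and 53.2% (51.4 to 55.0%) for those over 700 bp, a smaller range than over the score groups. For peaks in the highest group the density by origin width was 19.4 per Mb (17.1 to 21.9) in the narrowest origins, 7.36 and 6.30 in the middle classes and 8.38 (7.76 to 9.05) in the widest. For the lowest group it was 3.48 (2.55 to 4.65) in the narrowest and 0.734 (0.557 to 0.948) in the widest. Both high- and low-scoring peaks were thus densest in the narrowest origins.

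Inside or beside an origin, the position of SKP2 changed sharply at the border. A total of 5346 peaks (39.5%, 38.7 to 40.4%) lay wholly inside an origin, 829 (6.13%, 5.74 to 6.55%) crossed an edge, and 36 held a whole origin. The other 7307 peaks (54.1%, 53.2 to 54.9%) met no origin. Of these, 468 lay within 1000 bp of one and 1507 lay more than 50000 bp away, and the median distance was 13486 bp. Peaks wholly inside origins had a median score of 515.5 (quartiles 346 to 912), those crossing an edge one of 389 and those outside one of 303 (249 to 397). Among peaks outside, the median score fell from 355 within 1000 bp to 281 beyond 50000 bp.

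Counted per length of sequence, SKP2 centres had a density of 21.0 per Mb (20.5 to 21.5) inside origins and of 3.11 (3.04 to 3.18) outside. In the outermost 400 bp inside the edge the density was 23.1 per Mb (21.9 to 24.3), and in the first 400 bp outside it was 4.84 (4.33 to 5.40). From 0.4 to 1 kb outside it was lower still, 3.11 (2.74 to 3.51), and from 1 to 5 kb it was 4.91 (4.68 to 5.14), so the sequence next to an origin was no richer in SKP2 than sequence a few kb away. Farther out the density fell to 3.86 (3.63 to 4.09) between 5 and 10 kb, 2.89 (2.78 to 3.002) between 10 and 50 kb and 2.06 (1.96 to 2.17) beyond. Origins were called with a gap of 600 bp, so enriched windows closer than that were joined into 1 origin, and the part of this rule in the low value at 0.4 to 1 kb was not tested. The bands inside origins pool all widths, and the narrowest origins, where density was highest, fall mostly in the outermost 400 bp.

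**Figure D2:**
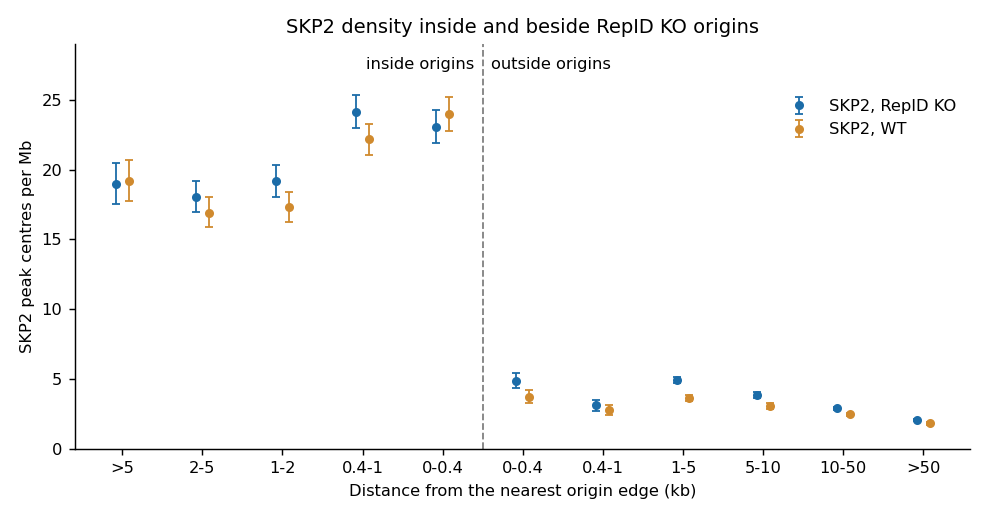
SKP2 peak centres per Mb of sequence (y axis) by distance in kb from the nearest edge of a RepID KO origin (x axis, inside to the left and outside to the right of the dashed line), for SKP2 of RepID KO (blue) and WT cells (orange), with exact Poisson 95% intervals. With origins of all widths pooled, the density in RepID KO cells is 23.1 per Mb in the last 0.4 kb inside and 4.84 per Mb in the first 0.4 kb outside.

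Within origins, SKP2 lay near the middle of narrow origins but not of wide ones. An even spread would place 50% of the centres in the middle 50% of the length. In origins of 200 to 1000 bp, 74.5% (70.8 to 77.9%) of the 569 centres lay there, and in those of 1 to 3 kb 56.1% (53.7 to 58.5%) did. In origins of 3 to 10 kb the share was 47.4% (45.4 to 49.5%), slightly below an even spread, and in the widest it was 47.8% (45.3 to 50.4%), an interval that includes 50%. For SKP2 peaks wholly inside an origin, which have to lie away from the edge, the share at 3 to 10 kb was 50.3% (48.2 to 52.4%). In the classes of 3 to 10 kb and above, the median distance from the nearest edge was 1238.5 and 4439 bp. Centres in the left part of an origin, by coordinate, made up 50.4% of all, so neither side was favoured.

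The 3 SKP2 peaks with the highest scores that met an origin all lay wholly inside it. The first, with a score of 5331, was on chromosome 14 from 69365574 to 69366354 in an origin of 4000 bp. The next, with 5193, was on chromosome 21 from 9698829 to 9699944 in an origin of 10600 bp and was not called in WT cells. The third, with 4840, was on chromosome 11 from 115017874 to 115019732 in an origin of 3000 bp. More than 50 kb from any origin of these cells, the leading scores were 2079 for a peak on chromosome 4 from 71346918 to 71347163, 1923 on chromosome 16 from 46407581 to 46408188 and 1721 on chromosome 4 from 45823663 to 45823908. All 3 of these distant peaks met an H3K9me3 peak of U2OS cells and none was called for SKP2 in WT cells. Both on chromosome 4 also met a U2OS origin and a CUL4A peak, and the one from 45823663 met CDT2 and H3K4me3 as well.

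Over 1 Mb bins, SKP2 peaks and origins were found in the same regions. Across the 2734 bins with any region, the number of SKP2 peaks per bin had a median of 4 (quartiles 2 to 7) and a maximum of 40, and 269 bins (9.84%) had none. Origin coverage had a median of 3.50% (quartiles 1.16 to 15.5%) and reached 80.4%. The number of SKP2 peaks per Mb and origin coverage were correlated across bins, with Spearman's rho of 0.71 and Pearson's r of 0.70. Bins of 1 genome share a library, mappability and copy number, and each SKP2 peak in an origin counts on both sides, so this is a description without a test. For peaks that met no origin, counted per Mb of sequence outside origins, rho was 0.41 and r was 0.25.

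Ranked by origin coverage into 10 groups of bins, SKP2 density rose from 1.86 peaks per Mb (1.70 to 2.03) in the poorest to 12.2 (11.8 to 12.6) in the richest, which held 24.0% of all peaks. Peaks outside origins rose from 1.79 (1.64 to 1.96) to 4.02 per Mb of non-origin sequence (3.78 to 4.28) by the seventh group and changed little from there, to 4.50 (4.17 to 4.86) in the richest. The share of peaks at origins was 3.93% (2.56 to 5.99%) in the poorest bins, where origins covered 0.380% of the sequence, and 79.7% (78.3 to 81.0%) in the richest, where they covered 45.0%. Set against the covered length, these shares were 10.3-fold and 1.77-fold higher, and from group 2 on this fold fell at every step. The share at origins cannot pass the total of the peaks, so the largest possible fold also falls as coverage rises. The part of this ceiling in the fall was not tested. No SKP2 peak was found in 26.6% (21.8 to 32.2%) of the poorest bins.

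**Figure D3:**
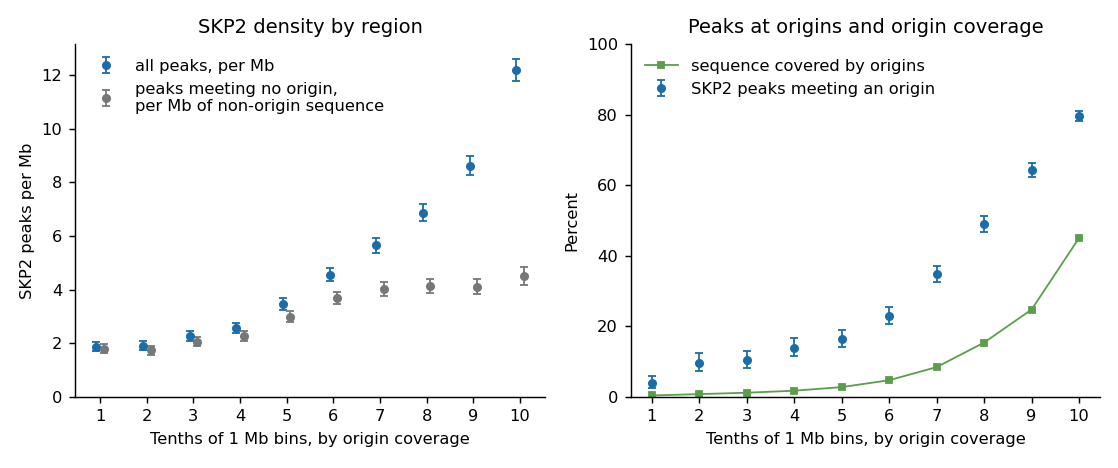
Bins of 1 Mb on chromosomes 1 to 22 in 10 groups of rising origin coverage (x axis). Left, SKP2 peaks per Mb, for all peaks (blue) and for those that met no origin per Mb of non-origin sequence (grey), with exact Poisson 95% intervals; right, percent of SKP2 peaks at origins with Wilson 95% intervals (blue) and percent of sequence covered by origins (green). All peaks rise from 1.86 to 12.2 per Mb, and peaks outside origins from 1.79 to 4.50 per Mb.

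The 5 bins with the most SKP2 peaks were of different kinds. The first, on chromosome 4 from 49000001 to 50000000, held 40 peaks, of which 38 were at origins, with a median score of 1891. Without this bin, 34.8% (30.7 to 39.1%) of the SKP2 peaks on chromosome 4 were at origins, against 39.3% with it. Bins on chromosome 10 from 134000001, chromosome 19 from 51000001 and chromosome 20 from 60000001 held 33, 28 and 28 peaks, and origins covered 63.8, 39.5 and 67.0% of them. The bin on chromosome 11 from 131000001 to 132000000 differed from these, with 26 peaks of which 7 were at origins, and with an origin coverage of 14.0%. The 3 bins without SKP2 in which origin coverage was highest were fragments at chromosome ends, on chromosomes 18, 19 and 4. Among full bins, a choice made after their values were seen, the highest coverage without SKP2 was 20.1% on chromosome 12 from 50000001 to 51000000, with 37 origins. That bin held 6 SKP2 peaks in WT cells.

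By chromosome, SKP2 density followed origin coverage. Chromosome 4 had the lowest of both, with 2.82 peaks per Mb and origins over 4.13% of its sequence. Chromosome 19 had the highest SKP2 density, 11.7 per Mb (10.8 to 12.6), at a coverage of 27.5%, and chromosome 22 had the highest coverage, 33.2%, with 9.65 peaks per Mb. Over the 22 chromosomes rho was 0.95 and r was 0.94. The share of SKP2 peaks at origins ran from 32.8% (27.9 to 38.2%) on chromosome 13 to 68.5% (63.4 to 73.2%) on chromosome 22. Chromosomes 16 and 20 had nearly equal origin coverage, 18.6 and 18.1%, but the share of peaks at origins was 47.2% (43.5 to 51.0%) on chromosome 16 and 57.1% (52.5 to 61.5%) on chromosome 20. The occupied share of origins varied less, from 5.30% (4.37 to 6.41%) on chromosome 13 to 9.43% (8.58 to 10.3%) on chromosome 19.

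**Figure D4:**
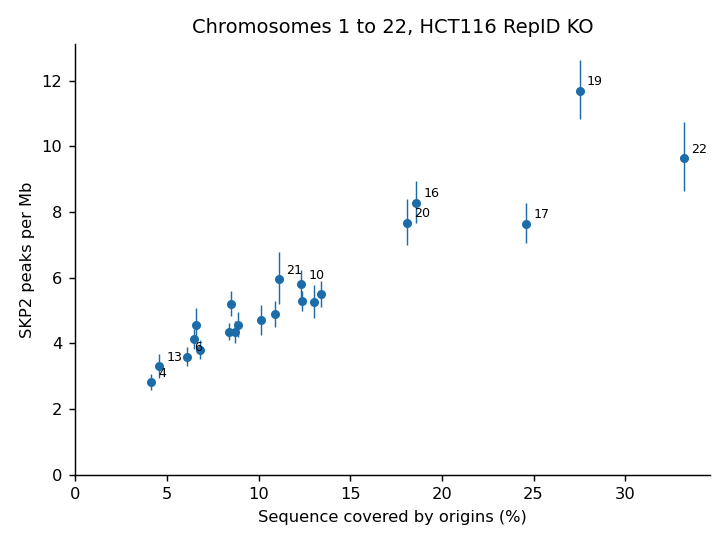
SKP2 peaks per Mb (y axis, bars are exact Poisson 95% intervals) against the percent of sequence covered by origins (x axis) for each of chromosomes 1 to 22 in HCT116 RepID KO cells, with some chromosomes numbered. Chromosome 4 is at 2.82 peaks per Mb and 4.13%, chromosome 19 at 11.7 and 27.5%, and chromosome 22 at 9.65 and 33.2%.

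The other lists, which played no part in choosing the origins, met origins with SKP2 more often than origins without it, except H3K4me3, and except U2OS origins (96.6 and 96.1%) and CUL4A in the widest class, where the intervals overlapped. H3K9me3, a mark of late-replicating heterochromatin, was compared at origins of equal width class because wide origins meet more peaks of any kind. It met 21.4% (18.4 to 24.7%) of the narrowest origins with SKP2 and 7.39% (7.02 to 7.78%) of those without. In the widest class the shares were 61.5% (58.7 to 64.3%) and 48.9% (47.2 to 50.7%). H3K4me3, a mark of active promoters and early replication, met 5.87% (4.33 to 7.93%) of the narrowest origins with SKP2 and 11.9% (11.4 to 12.4%) of those without. In the class of 1 to 3 kb it met 12.6% (11.1 to 14.3%) and 18.6% (18.2 to 19.0%), and in the widest class 39.6% (36.9 to 42.5%) and 40.8% (39.1 to 42.5%). Over all widths together, H3K4me3 met 19.4% of origins with SKP2 and 18.5% of those without, so the lower share at narrow origins was not visible without the width classes. Median width still differed between origins with and without SKP2 in the 3 wider classes, by 200, 800 and 3000 bp, and was equal only in the narrowest.

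CDT2, which also targets CDT1 as a receptor of CRL4, met 23.0% (20.0 to 26.4%) of the narrowest origins with SKP2 and 6.22% (5.88 to 6.58%) of those without. In the widest class the values were 52.7% (49.9 to 55.5%) and 38.8% (37.1 to 40.5%). CUL4A met 39.2% (35.5 to 42.9%) and 23.2% (22.6 to 23.8%) of the narrowest origins, but 93.0% (91.4 to 94.3%) and 90.8% (89.7 to 91.7%) of the widest. U2OS origins were found at 62.0% (58.3 to 65.7%) and 39.5% (38.8 to 40.2%) of the narrowest. All of these lists but the WT SKP2 peaks come from another cell line, so a shared position means that the region was called in both lines.

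**Figure D5:**
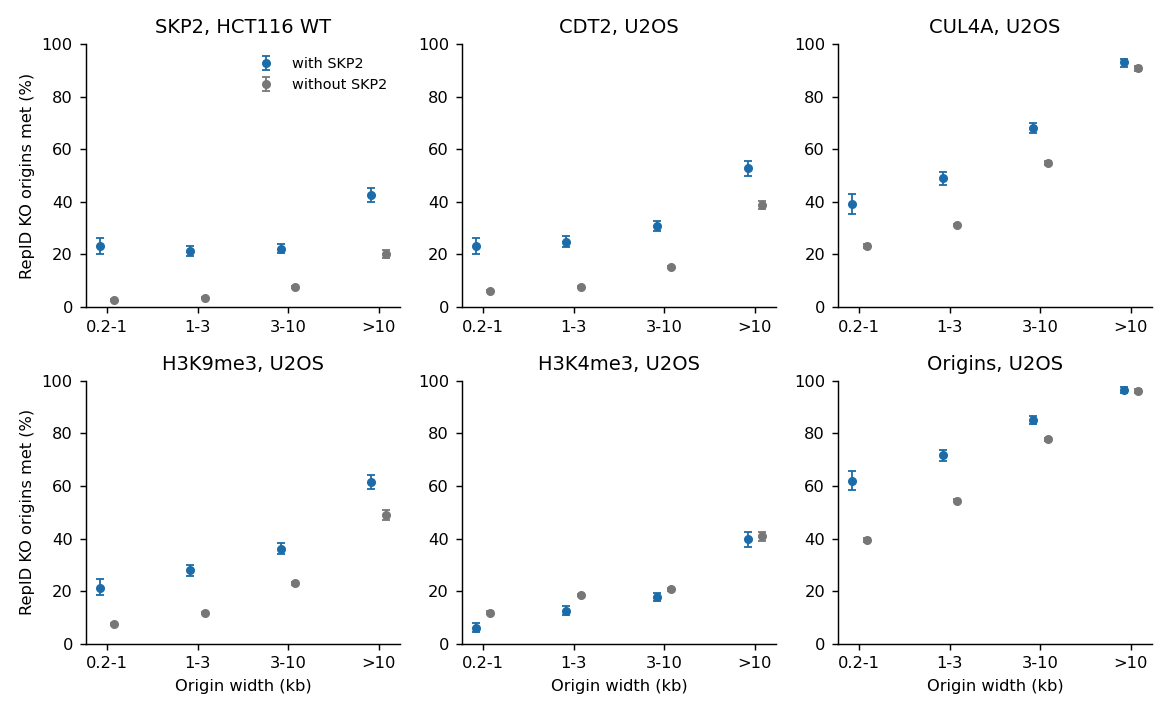
Percent of HCT116 RepID KO origins (y axis) that share at least 1 bp with a region of each of 6 other lists, by origin width in kb (x axis), for origins with (blue) and without (grey) a SKP2 peak in RepID KO cells, with Wilson 95% intervals. At origins of 0.2-1 kb, H3K9me3 met 21.4 and 7.39% and H3K4me3 met 5.87 and 11.9%.

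SKP2 peaks at origins also differed from SKP2 peaks elsewhere in these lists. CUL4A met 40.6% (36.6 to 44.7%) of SKP2 peaks centred in the narrowest origins, 70.6% (68.2 to 72.8%) of those in the widest and 16.3% (15.5 to 17.2%) of those that met no origin. H3K9me3 varied less, at 22.1% (18.9 to 25.7%), 21.0% (19.0 to 23.1%) and 16.3% (15.5 to 17.2%). Beyond 50000 bp from any origin, 15.3% (13.5 to 17.2%) of SKP2 peaks met H3K9me3 and 2.32% (1.67 to 3.21%) met H3K4me3. The H3K9me3 list is the larger, with 56182 regions against 24227 on chromosomes 1 to 22. How often sequence that far from origins meets either mark without SKP2 was not measured. The next SKP2 peak was also closer for SKP2 peaks at origins, at a median distance of 29668 bp against 61719 bp for those outside origins. Region was not held equal here, and bins rich in origins had both a higher SKP2 density and a larger share of peaks at origins.

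SKP2 peaks of WT cells, set on the same RepID KO origins, gave similar values by width. Of the 11929 WT peaks on chromosomes 1 to 22, 49.4% (48.5 to 50.3%) met a RepID KO origin. They occupied 3.42% (3.17 to 3.69%) of the narrowest and 26.1% (24.9 to 27.5%) of the widest origins, with densities of 44.7 (41.2 to 48.5) and 18.4 centres per Mb (17.5 to 19.4). In the narrowest origins, 79.0% (75.6 to 82.1%) of WT centres lay in the middle 50%. Most origins with RepID KO SKP2 had no WT call, though more of them had one than of all origins. WT SKP2 met 23.0% (20.0 to 26.4%) of the narrowest and 42.6% (39.8 to 45.4%) of the widest origins with RepID KO SKP2. At origins without RepID KO SKP2 the shares were 2.71% (2.48 to 2.95%) and 20.1% (18.8 to 21.5%). A peak absent from 1 list may lie below its calling threshold, so these shares describe calls and not binding. Origins of WT cells were not used here, and with 1 library per genotype a difference between WT and RepID KO has no replicate check.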

How the data were processed

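Peaks of SKP2 (1 sample each from HCT116 RepID KO and WT cells) and origins of RepID KO cells were used as deposited, as positions in base pairs. The authors called SKP2 peaks against IgG with MACS2 broad peaks and origins against genomic DNA with SICER, with a window of 200 bp, a gap of 600 bp and a false discovery rate of 0.01. The submitters' processing notes name hg19. The authors' deposited score of each region is a whole number of unstated scale, used within a list only. Other columns were not used. No reads or library totals were used, so depth is unknown.

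Overlaps of at least 1 bp, peak centres, and distances on the 200 bp grid were counted with Python 3.11.15, NumPy 2.4.6, pandas 2.3.3 and SciPy 1.17.1, and figures drawn with matplotlib 3.10.9. Of 2894 bins of 1 Mb on chromosomes 1 to 22, the 2734 with a region of any list were kept (2720 Mb). The counting was tested on simulated data. The widths, lists and naming rule were chosen with earlier results of these data known: 2 origins per width class with the most SKP2 peaks (ties by summed SKP2 score, then position), the 3 peaks with the highest score at origins and the 3 beyond 50 kb, the 5 bins with the most peaks, and the 3 bins of highest coverage without any. Alternatives were 50% overlap, a gap of 1 kb, the stronger 50% of either list, other bins and other references for density. Sequence features could not be computed without a genome of this build.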

Additional observations from a re-analysis of the deposited data

Results flagged for a closer look

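Chromosome X lies outside the comparisons above. It held 304 SKP2 peaks, of which 80 (26.3%, Wilson 95% confidence interval 21.7 to 31.5%) met an origin, in data no comparison above used. Origins covered 2.47% of the chromosome. Of its 1568 origins, 5.04% (4.06 to 6.24%) met a SKP2 peak.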

How the results depend on the processing

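Of 121 recomputed values, 41 were of summary results and 80 of further ones. Of the 41, 16 stayed within the interval of the main value and 25 moved outside it. Of the 80, 47 stayed and 33 moved. Most values are shares, for which a change of direction was not defined. The ratios between the narrowest and the widest class kept their direction wherever they were recomputed, but the order of neighbouring classes changed. With the stronger 50% of origins, occupancy was 7.03% (5.85 to 8.41%) in the narrowest class and 5.70% (5.34 to 6.08%) at 1 to 3 kb. With the stronger 50% of SKP2 peaks, density over all sequence was 12.6-fold in the narrowest class, 5.80-fold and 5.40-fold in the middle classes and 6.06-fold in the widest. The share of SKP2 peaks at origins (45.9%) was 44.0% with at least 50% of the peak inside origins, 49.4% with a gap of up to 1 kb, 64.4% for the stronger 50% of SKP2 peaks and 34.7% for the stronger 50% of origins. In the same order, the share of origins with SKP2 (6.89%) was 6.59, 7.68, 4.80 and 10.1%, and the ratio of occupancy in the widest to the narrowest class (7.64) was 8.82, 6.46, 9.08 and 3.81. The density in the narrowest over that in the widest origins (2.28) was 4.15 for the stronger 50% of origins and 3.70 against each origin's own bin. The density inside origins over that in the first 1000 bp outside (5.41) was 8.07 for the stronger 50% of SKP2 peaks. The percent of centres in the middle 50% of the narrowest origins (74.5%) was 78.5% for the stronger 50% of SKP2 peaks and 87.6% for peaks wholly inside an origin, which have to lie away from the edge. Across bins, rho (0.71) was 0.61 for 500 kb, 0.87 for 5 Mb and 0.41 for peaks that met no origin. The richest 10% of bins held 24.0% of all SKP2 peaks and 9.03% of those outside origins, against 33.2 and 12.8% for the stronger 50% of peaks, 20.5% of all peaks in bins of 5 Mb, and 8.27% and 10.8% of those outside origins for bins of 500 kb and for the number of origins. For these shifts the cause was not tested. Leaving out the 5 bins with the most SKP2 peaks, chosen after seeing the data, kept 6 of 6 summary values within their intervals. As these are 5 of 2734 bins, they could move such values only a little. No paired analysis was possible because each condition has 1 sample. Unknown depth limits every count of peaks, including those between WT and RepID KO cells.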
